A study of Homo sapiens with 4 samples.

Results

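EYA1, EYA2, EYA3, EYA4, SIX2, SIX4, SIX5 and DACH1 are human EYA, SIX-family and DACH genes, 8 of the 61806 genes in the count table. They were taken by gene symbol, and they were picked with their values in these cells already known. Their differences between the groups are therefore given as a description, with fold and spread but without a p-value. The cells were U118-MG, an established human glioma line with the label genotype WT, grown in DMEM with 10% serum. Of the 4 RNA-seq libraries, 2 came from cells infected with the negative control lentivirus (NC) and 2 from cells infected with the lentivirus for SPNS2 overexpression (SPNS2 group). Both groups were thus infected with a lentivirus. In the SPNS2 group, SPNS2, an exporter of sphingosine 1-phosphate, is driven by the CMV promoter of the pCDH-CMV-MCS-EF1-puro vector. Whether the cells were cloned, or grown as separate cultures for each library, is not in the labels, so the spread between libraries may be technical.

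These genes form a developmental network first worked out in the fly eye. SIX-family proteins are homeodomain factors that bind DNA, EYA proteins are coactivators without DNA binding of their own that also carry a tyrosine phosphatase domain, and DACH proteins are related to the SKI corepressors. PAX factors act upstream of the network in several organs. In vertebrates the network is best known from sensory placodes, kidney and skeletal muscle, and several members are re-expressed or silenced in tumours.

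The library totals lay between 31353373 and 34125159 counts, and SPNS2 itself had 42 and 47 counts in NC and 7381 and 8224 in the SPNS2 libraries. Of 12 astrocyte and glioma markers, 6 passed the filter on low counts (filterByExpr of edgeR), and of these SLC1A3 and VIM rose, PDGFRA and NES fell, and CD44 and SOX9 did not pass the test. SLC1A3 rose 18.5-fold (edgeR adjusted p = 0.0016), VIM 1.49-fold (edgeR adjusted p = 0.0205), PDGFRA fell 2.79-fold (edgeR adjusted p = 0.0011) and NES 1.78-fold (edgeR adjusted p = 0.0243). The defining astrocyte gene GFAP had 0 and 8 counts in NC and 4 and 0 in SPNS2, and S100B had none. CPM here is the count scaled to a common library size by TMM, and values with ± are the mean and SD of the 2 libraries of a group. Markers of tissues where the network is normally active were low: the 7 skeletal muscle markers summed to between 2.19 and 4.32 CPM per library, and the 6 kidney epithelium markers to at most 0.119 CPM. The 5 epithelial markers summed to 2.88 and 3.21 CPM in NC and to 0.942 and 0.959 CPM in SPNS2. The 5 endothelial markers summed to 5.86 and 6.27 CPM in NC and to 27.8 and 32.2 CPM in SPNS2, with TIE1 the main contributor in SPNS2 and PECAM1 in NC. TIE1 and PECAM1 rose, VWF fell 6.31-fold (edgeR adjusted p = 0.0465), and CDH5 and EGFL7 were at 0 counts in both SPNS2 libraries. The 4 immune markers summed to 111 and 130 CPM in NC and to 65.9 and 76.2 CPM in SPNS2, nearly all from CD68. The part of these other markers in the results below was not tested.

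The sequences before a RefSeq transcription start are shown for 4 members that contrast in these cells: EYA4 and DACH1 had no or 1 read in the NC libraries and were read in the SPNS2 libraries, SIX2 went the other way, and SIX4 was read strongly in all 4. They are the 250 bases before that start on GRCh38.p14, printed 5′ to 3′ with every CG dinucleotide, the usual site of DNA methylation, in capitals. RefSeq windows were matched for 5 of the 8 members. The EYA4 window lies within the GENCODE span of the gene given below, which starts further upstream than RefSeq does, so it precedes the RefSeq start only.
EYA4, chr6:133241107-133241356, plus strand: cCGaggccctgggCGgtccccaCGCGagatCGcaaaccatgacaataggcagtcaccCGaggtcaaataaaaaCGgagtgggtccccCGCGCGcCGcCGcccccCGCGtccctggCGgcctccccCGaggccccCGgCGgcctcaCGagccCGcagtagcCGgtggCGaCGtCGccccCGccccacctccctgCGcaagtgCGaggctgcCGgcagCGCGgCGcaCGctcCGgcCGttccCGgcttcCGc
DACH1, chr13:71867205-71867454, minus strand: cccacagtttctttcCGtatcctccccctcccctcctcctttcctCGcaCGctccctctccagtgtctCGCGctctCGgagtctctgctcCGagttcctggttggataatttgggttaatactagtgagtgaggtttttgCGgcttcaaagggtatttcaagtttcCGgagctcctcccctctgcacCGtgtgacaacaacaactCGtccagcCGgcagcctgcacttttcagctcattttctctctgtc
SIX2, chr2:45009453-45009702, minus strand: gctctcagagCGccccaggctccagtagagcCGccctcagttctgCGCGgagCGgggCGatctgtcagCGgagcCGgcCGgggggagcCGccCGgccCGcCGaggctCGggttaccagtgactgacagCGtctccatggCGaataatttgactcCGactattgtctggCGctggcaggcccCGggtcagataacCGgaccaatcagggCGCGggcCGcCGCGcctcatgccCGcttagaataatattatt
SIX4, chr14:60724352-60724601, minus strand: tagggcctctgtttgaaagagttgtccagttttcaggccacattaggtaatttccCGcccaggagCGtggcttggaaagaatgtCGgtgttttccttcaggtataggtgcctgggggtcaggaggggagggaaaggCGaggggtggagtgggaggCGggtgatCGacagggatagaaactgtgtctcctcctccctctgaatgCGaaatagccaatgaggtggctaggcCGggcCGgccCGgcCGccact
The EYA4 window held 36 CG dinucleotides and had 75.2% G and C, the DACH1 window 12 and 54%, the SIX2 window 26 and 65.6%, and the SIX4 window 11 and 58%. Over 35114 RefSeq windows of the same 250 bases, the median was 11 CG dinucleotides, and 95.2% of the windows held fewer than EYA4, 80.4% fewer than SIX2, 51.5% fewer than DACH1 and 49.7% fewer than SIX4. EYA4 and DACH1, which were both read almost only in the SPNS2 cells, thus differed in CG content. The fifth matched window, that of EYA3, held 20. None of the 5 windows held the letters TCAGGTT (the core of the MEF3 site that SIX-family proteins bind in muscle genes), TGATAC (another reported SIX-family site) or TATAAA (the TATA box) on either strand. These letters occur in 2.79%, 3.8% and 10.7% of all windows. DNA methylation was not measured in these samples.

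**Figure D1:**
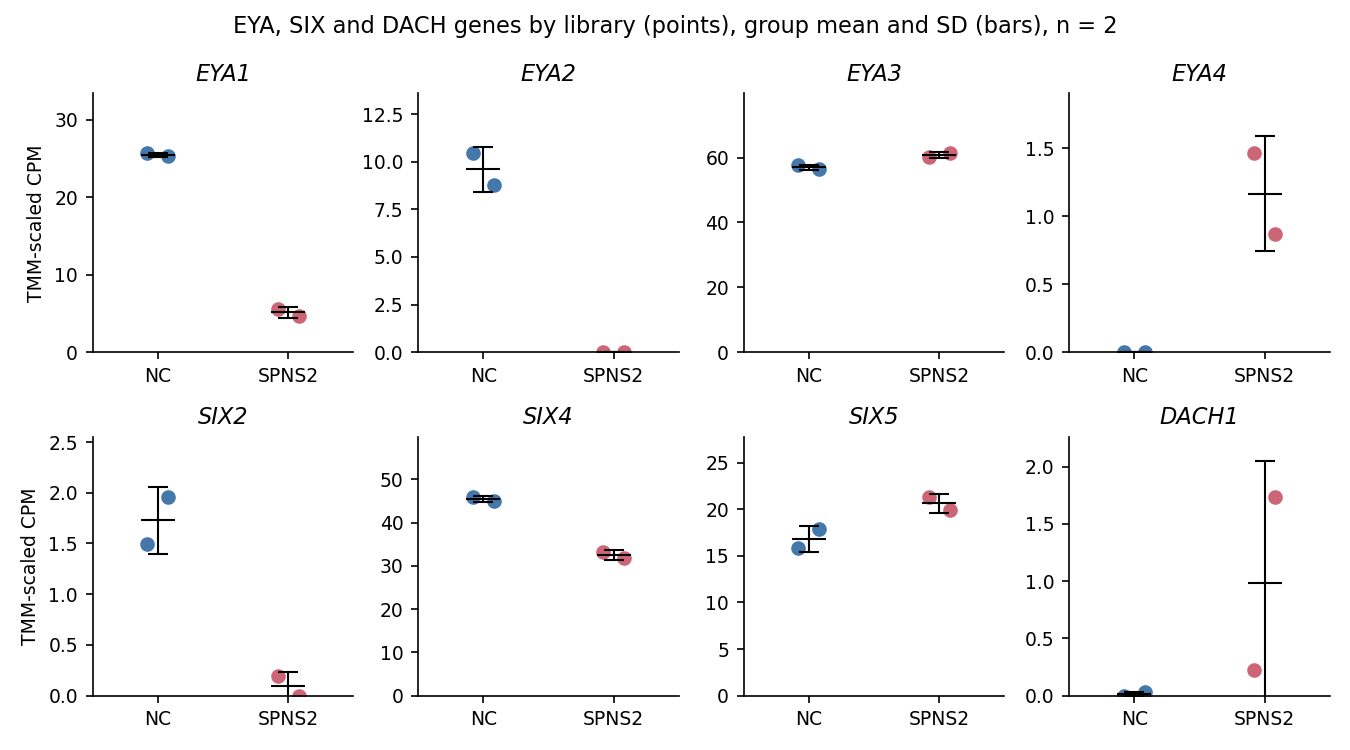
TMM-scaled CPM (y axis, linear from 0, a separate scale in each panel) of the 8 genes in the 2 NC and 2 SPNS2 libraries; points are libraries, bars are the group mean and SD (n = 2, cut at 0 where the SD exceeds the mean). EYA2 is at 0 in both SPNS2 libraries and EYA4 at 0 in both NC libraries, EYA1 and SIX4 are lower in SPNS2, EYA3 differs little, and the SPNS2 libraries of DACH1 lie far apart.

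Of the 4 EYA coactivators, EYA1 and EYA2 were lower and EYA4 higher in SPNS2, while EYA3 differed little. EYA2 (ENSG00000064655, chromosome 20, 46894624 to 47188844 on hg38, plus strand), a coactivator studied in breast and lung tumours, had 335 and 295 counts in the NC libraries, or 10.5 and 8.77 CPM. It had 0 counts in both SPNS2 libraries. Against a floor of 3 counts over the SPNS2 group, EYA2 was at least 205-fold lower in SPNS2. No read at all was thus found in the SPNS2 cells for a gene that was moderately expressed in the control cells. In bulk RNA, fewer cells that express a gene and less of its RNA per cell cannot be told apart.

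EYA4 (ENSG00000112319, chromosome 6, 133240598 to 133532120, plus strand), a gene of hearing and heart muscle disease, showed the reverse at a lower level. It had 0 counts in both NC libraries and 45 and 29 counts in the SPNS2 libraries, or 1.46 and 0.869 CPM. Against the same floor over the NC group, EYA4 was at least 25.3-fold higher in SPNS2. The antisense RNA TARID, known for the demethylation of the nearby TCF21 gene, overlaps the end of EYA4 on the other strand. TARID had 66 and 52 counts in NC and 23 and 15 in SPNS2, a log2 fold change of -1.59 with an SE of 0.42 and an edgeR adjusted p of 0.0628. TARID was named after its values were seen. The strand setting of the counting is not given in the sources used here, so reads of EYA4 and TARID from shared sequence cannot be told apart. The counts of EYA4 and TARID differed between the groups in opposite directions. TCF21 had at most 6 counts in any library.

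EYA1 (ENSG00000104313, chromosome 8, 71197433 to 71592025, minus strand), the gene of branchio-oto-renal syndrome, was read 824 and 853 times in NC and 173 and 155 times in SPNS2. EYA1 thus measured 25.5 ± 0.251 CPM in the controls and 5.13 ± 0.689 CPM in SPNS2, 4.97-fold less (log2 fold change -2.31, SE 0.15). The libraries of each group lay close together and far from those of the other. EYA3 (ENSG00000158161, chromosome 1, 27970344 to 28088696, minus strand), the most widely expressed EYA gene, was at 57.6 and 56.5 CPM in NC and at 60.1 and 61.4 CPM in SPNS2. Its log2 fold change was 0.09 with a 95% interval of -0.09 to 0.27. The EYA3 groups did not overlap, but their difference was 1.06-fold.

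Set on a scale per exon length (FPKM, here TMM-scaled CPM per kilobase of exon), the EYA family changed in make-up. The 4 EYA genes together were at 14.2 ± 0.471 FPKM in NC and 10.0 ± 0.0134 FPKM in SPNS2. In NC, EYA3 made up 62.1 ± 1.25% of that sum, EYA1 19.1 ± 0.449% and EYA2 18.7 ± 1.7%. EYA1 and EYA2 therefore could not be ranked against each other in NC, where the libraries of EYA1 (2.73 and 2.69 FPKM) lay within those of EYA2 (2.89 and 2.42 FPKM). In SPNS2, EYA3 made up 93.3 ± 1.2% of the sum, EYA1 5.43 ± 0.736%, EYA4 1.29 ± 0.467% and EYA2 0%. The level of EYA3 itself was 8.8 ± 0.116 FPKM in NC and 9.37 ± 0.133 FPKM in SPNS2, so its larger share went with the lower EYA1 and EYA2 levels.

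**Figure D2:**
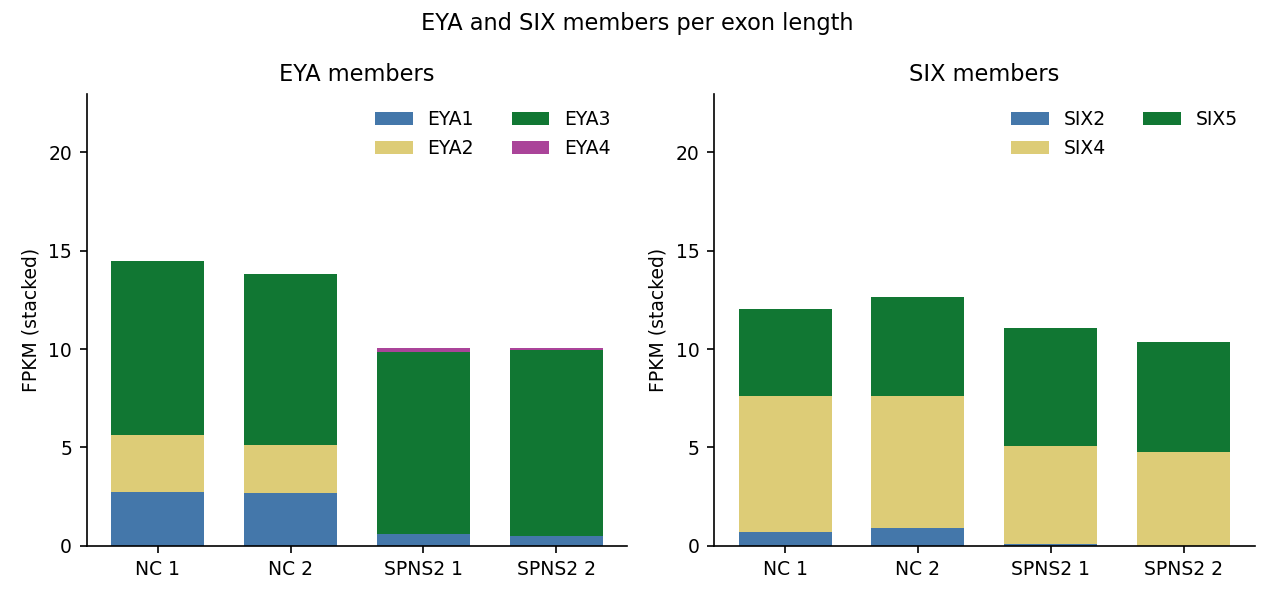
Stacked FPKM (y axis) of the 4 EYA members (left) and the 3 SIX-family members (right) in each of the 4 libraries (x axis). The green EYA3 block is about equally high in all 4 libraries while the EYA1 and EYA2 blocks shrink or vanish in SPNS2; on the right the SIX4 block is larger than the SIX5 block in both NC libraries and smaller in both SPNS2 libraries.

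Among the 3 DNA-binding SIX-family members, SIX2 showed the largest fold. SIX2 (ENSG00000170577, chromosome 2, 45005161 to 45009430, minus strand), which keeps kidney progenitors undifferentiated, had 48 and 66 counts in NC and 6 and 0 in SPNS2. The controls measured 1.73 ± 0.328 CPM and the SPNS2 libraries 0.0975 ± 0.138 CPM, a 17.7-fold difference. The size of this difference depended on the SPNS2 library used: the log2 fold change was -4.13 (SE 1.09) with all libraries, -8.83 without SPNS2 replicate 1 (leaving a library at 0) and -3.12 without SPNS2 replicate 2.

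SIX4 (ENSG00000100625, chromosome 14, 60709528 to 60724348, minus strand), a factor of skeletal muscle development, had the most reads of the 3. It was at 46.0 and 44.9 CPM in NC and 33.3 and 31.7 CPM in SPNS2, 1.4-fold lower (log2 fold change -0.48, SE 0.09). SIX5 (ENSG00000177045, chromosome 19, 45764785 to 45769226, minus strand), which lies next to the myotonic dystrophy gene DMPK, was at 15.8 and 17.8 CPM in NC and 21.3 and 19.9 CPM in SPNS2. Its log2 fold change was 0.29 with a 95% interval of -0.04 to 0.62, an interval that holds both no difference and a higher level in SPNS2. DM1-AS and a further gene, which overlap SIX5 on the other strand, had 3 to 15 and 23 to 39 counts per library.

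Per exon length the order of SIX4 and SIX5 differed between the groups. SIX4 was at 6.91 and 6.74 FPKM and SIX5 at 4.46 and 5.01 FPKM in NC, whereas SIX4 was at 5.01 and 4.77 FPKM and SIX5 at 6.0 and 5.6 FPKM in SPNS2. SIX2, SIX4 and SIX5 together were at 12.3 ± 0.426 FPKM in NC and 10.7 ± 0.518 FPKM in SPNS2. SIX5 made up 38.3 ± 1.87% of the sum in NC and 54.0 ± 0.0624% in SPNS2.

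DACH1 (ENSG00000276644, chromosome 13, 71437966 to 71867192, minus strand), a corepressor that restrains growth in several tumours, was nearly absent from NC, with 0 and 1 counts. The SPNS2 libraries held 7 and 58 counts, or 0.227 and 1.74 CPM. Over the group the ratio was 66.6 with a 95% counting interval of 11.5 to 2670. Both SPNS2 libraries were above both NC libraries, but they differed so much from each other that the level in the SPNS2 cells is uncertain: the ratio was 14.9 (1.92 to 673) from replicate 1 alone and 114 (19.7 to 4588) from replicate 2 alone. DACH1 did not pass the filter on low counts and was not in the fit. The intervals and floors cover counting error only.

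By level per exon length, EYA3 led in both groups. In NC it was followed by SIX4, SIX5, then EYA1 and EYA2 without a clear order, and SIX2 at 0.784 ± 0.149 FPKM, with EYA4 and DACH1 at or near 0. In SPNS2 it was followed by SIX5, SIX4 and EYA1 (0.545 ± 0.0732 FPKM), then by DACH1 (0.0422 and 0.323 FPKM), EYA4 (0.163 and 0.0969 FPKM) and SIX2 (0.0884 and 0 FPKM), where DACH1 overlapped both EYA4 and SIX2, and EYA2 was at 0. By mean CPM, 4 members were higher and 4 lower in SPNS2. The groups did not overlap at any of the 8 members, and they did not overlap at 66% of the 17853 genes tested. Of the 7 members tested, 4 passed an edgeR adjusted p of 0.05, against 23.4% of all tested genes, and nothing is read from this count because the members were chosen on these values. EYA2, EYA4 and SIX2 passed the low-count filter only through the group in which they were high. With NC replicate 1, NC replicate 2 or SPNS2 replicate 2 left out, fewer members passed, and without SPNS2 replicate 1 as many passed. The fit without SPNS2 replicate 2 held 7 members, and the fits without any other single library held all 8.

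Of the family genes that were not members, 3 are described here. DACH2, a paralogue of DACH1, measured 1.39 ± 0.383 CPM in control and 1.42 ± 0.61 CPM in SPNS2 cells (edgeR adjusted p = 0.976), with groups that overlapped. SIX3 and SIX6, factors of the eye and forebrain, had no counts in any library.

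The chromosomal surroundings of the members did not share their pattern throughout. The median log2 fold change over all tested genes was -0.01, and those of the members' chromosomes ran from -0.16 (chromosome 2, with SIX2) to 0.1 (chromosome 20, with EYA2). Beside EYA2, the glucose transporter gene SLC2A10 at 158 kb fell (66.5 ± 2.06 CPM in control and 42.2 ± 2.01 CPM in SPNS2 cells, edgeR adjusted p = 0.0104), while the chromatin reader gene ZMYND8 at 20.4 kb was at 37.8 ± 5.88 and 52.1 ± 2.42 CPM (edgeR adjusted p = 0.0762). Both genes were thus read in all 4 libraries. Beside EYA1, LACTB2 was at 3.0 ± 0.973 and 1.05 ± 0.47 CPM (edgeR adjusted p = 0.085) and the antisense RNA MSC-AS1 fell (7.15 ± 0.826 CPM in control and 3.31 ± 0.781 CPM in SPNS2 cells, edgeR adjusted p = 0.0421). Between SIX5 and DMPK lie 0.491 kb, and DMPK, a muscle protein kinase, measured 23.7 ± 1.27 CPM in control and 19.7 ± 0.657 CPM in SPNS2 cells (edgeR adjusted p = 0.15). On the other side of SIX5, the F-box gene FBXO46 rose (11.7 ± 0.483 CPM in control and 22.0 ± 1.92 CPM in SPNS2 cells, edgeR adjusted p = 0.0142). The genes beside EYA3 (XKR8 and the pseudogene SPCS2P4, whose reads may be shared with near-identical copies) and MNAT1 beside SIX4 did not pass the test, with adjusted p from 0.55 to 0.807.

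Of the members above a mean of 1 CPM, EYA2 had the largest log2 fold change, and the genes whose pattern was most like it were sought over the 4 libraries by the Euclidean distance of centred log2 CPM. The nearest were the alcohol dehydrogenase gene ADH7 (392 and 377 counts in NC, 0 and 0 in SPNS2, distance 0.302), ENSG00000276612 on chromosome 21 (448 and 490, then 0 and 1, distance 0.542) and the fibrinogen chain gene FGG (196 and 195, then 0 and 0, distance 0.691). Like EYA2, all 3 were moderately expressed in both NC libraries and absent or at 1 count in the SPNS2 libraries. This likeness follows from how the 3 genes were chosen.

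Upstream of the network, only 3 of the 9 PAX genes were expressed enough to be tested, and 2 of them fell in the SPNS2 cells. Of all tested genes, 12.1% rose and 11.3% fell. The PAX list and the lists that follow were chosen with earlier results of these data known. Their counts and adjusted p-values are therefore given as a description, and nothing is read from the counts. PAX9, a factor of pharyngeal pouches and teeth, fell 4.43-fold (20.9 ± 1.71 CPM in control and 4.72 ± 0.445 CPM in SPNS2 cells, edgeR adjusted p = 0.0034), and PAX6, the eye and forebrain factor, fell 1.81-fold (8.7 ± 0.707 CPM in control and 4.81 ± 0.277 CPM in SPNS2 cells, edgeR adjusted p = 0.0323). PAX8 was at 17.7 ± 3.02 and 15.7 ± 0.717 CPM (edgeR adjusted p = 0.494). The remaining 6, among them PAX2 and PAX3, which work with EYA1 and SIX-family genes in kidney and muscle, had no counts in any library. With any 1 of the 4 libraries left out, 1 PAX gene was called. The median of the 3 was -0.85 on the log2 scale, beside -0.01 over all tested genes.

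Among 17 genes for cofactors of SIX-family and DACH proteins, 14 were tested, 2 rose, 2 fell and 10 did not pass, with a median of -0.11. SOBP, whose fly relative binds the SIX-family protein Sine oculis, fell 2.61-fold (24.1 ± 1.24 CPM in control and 9.24 ± 0.202 CPM in SPNS2 cells, edgeR adjusted p = 0.0047). The groucho-related gene TLE5 fell 1.27-fold (164 ± 12.6 CPM in control and 129 ± 1.66 CPM in SPNS2 cells, edgeR adjusted p = 0.0403). The histone deacetylase gene HDAC3, part of corepressor complexes that DACH1 binds, rose 1.54-fold (47.4 ± 0.012 CPM in control and 73.2 ± 1.28 CPM in SPNS2 cells, edgeR adjusted p = 0.0082), and MCRIP1, a corepressor-binding protein, rose 3.22-fold (6.41 ± 0.069 CPM in control and 20.7 ± 4.33 CPM in SPNS2 cells, edgeR adjusted p = 0.0092). Without NC replicate 2, 2 of the list were called.

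Of 12 genes for partners, substrates or regulators of the EYA phosphatases, all 12 were tested, 5 rose, none fell and 7 did not pass, with a median of 0.29. Over all tested genes 12.1% rose and 11.3% fell, and nothing is read from the count of this list. APBB1, an adaptor of the histone H2AX branch of EYA action, rose 1.98-fold (16.8 ± 1.06 CPM in control and 33.3 ± 1.78 CPM in SPNS2 cells, edgeR adjusted p = 0.009). ABL1, a tyrosine kinase, rose 1.31-fold (edgeR adjusted p = 0.0176), BAZ1B, the kinase of the H2AX tyrosine that EYA proteins dephosphorylate, rose 1.22-fold (edgeR adjusted p = 0.0286) and CDC27, a subunit of the ubiquitin ligase that degrades EYA1, rose 1.28-fold (edgeR adjusted p = 0.0431). H2AX itself measured 137 ± 24.5 CPM in control and 93.5 ± 7.92 CPM in SPNS2 cells (edgeR adjusted p = 0.0617), and it was the 1 gene of the list that was lower at an unadjusted p under 0.05. With 1 library left out, between 1 and 2 of the list were called (1 without NC replicate 2 or SPNS2 replicate 2, 2 without NC replicate 1 or SPNS2 replicate 1).

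**Figure D3:**
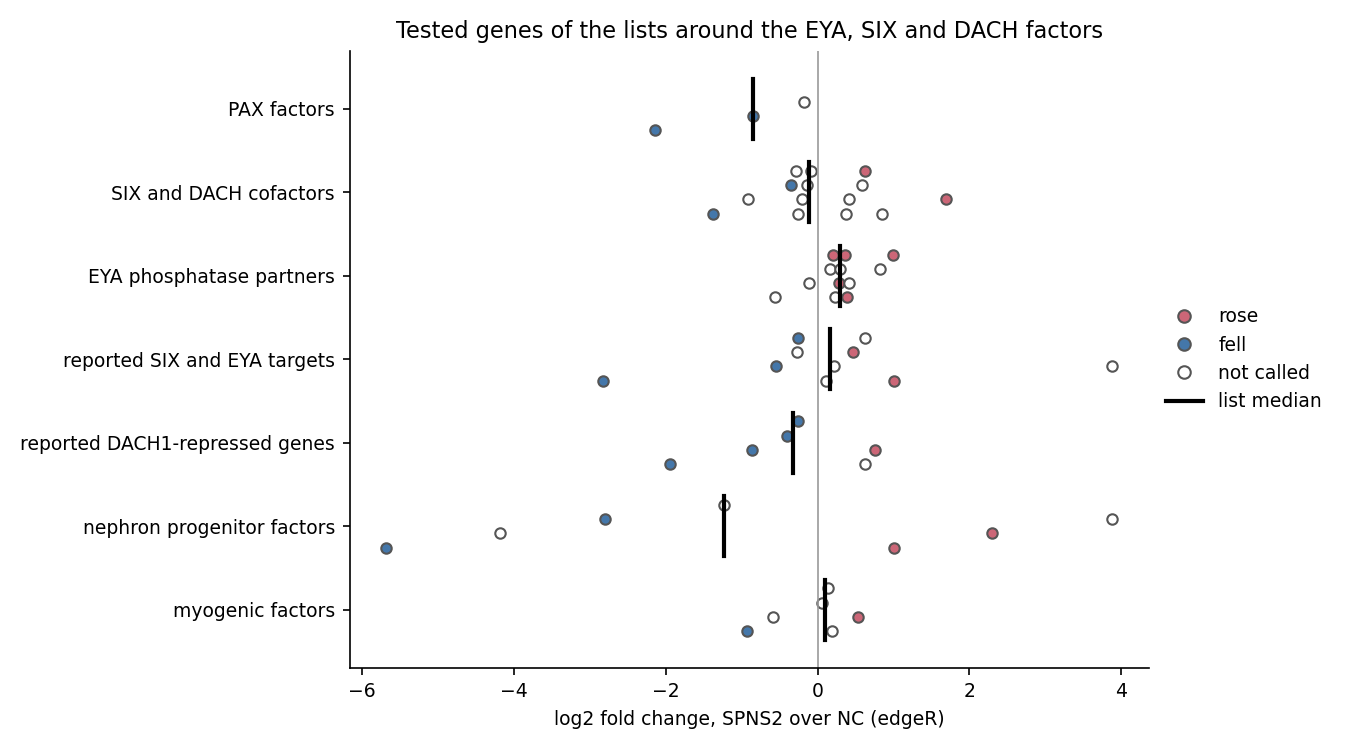
Log2 fold changes (x axis, SPNS2 over NC, edgeR) of the tested genes in 7 lists around the network (y axis); each point is a gene, filled red where it rose, blue where it fell and white where it did not pass, and the black line is the list median. The PAX median lies at -0.85, the value of PAX6. The nephron progenitor median lies at -1.24, the value of HOXC11, which had at most 24 counts in any library and did not pass. The other medians lie between -0.33 and 0.29.

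Genes reported elsewhere as targets of SIX-family and EYA proteins went both ways. Of 15, 10 were tested, 2 rose, 3 fell and 5 did not pass, with a median of 0.16. IGFBP5, an insulin-like growth factor binding protein reported as a SIX5 target, fell 7.12-fold (49.1 ± 1.6 CPM in control and 6.88 ± 1.88 CPM in SPNS2 cells, edgeR adjusted p = 0.0039) and VEGFC, a lymphatic growth factor, fell 1.46-fold (265 ± 12.4 CPM in control and 182 ± 2.2 CPM in SPNS2 cells, edgeR adjusted p = 0.0088). GDNF, the growth factor that EYA1 and SIX-family genes switch on in the kidney, rose 2.01-fold (19.8 ± 1.13 CPM in control and 39.9 ± 0.905 CPM in SPNS2 cells, edgeR adjusted p = 0.0065), and the glycolytic gene ALDOA, with a MEF3 site in its muscle promoter, rose 1.38-fold (edgeR adjusted p = 0.0059). The muscle factor MYOG had no counts. The cyclin gene CCND1, named as a target of DACH1, fell 1.2-fold (1429 ± 38.6 CPM in control and 1194 ± 33.9 CPM in SPNS2 cells, edgeR adjusted p = 0.0233).

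Of 8 genes described as repressed by DACH1, 6 were tested, 4 fell, 1 rose and 1 did not pass, with a median of -0.33. CCND1, given above, is among those that fell and is also counted among the SIX-family and EYA targets. MYC, likewise in both lists, did not pass, with 182 and 1158 counts in NC and 1616 and 310 in SPNS2. FGF2, a growth factor, fell 1.82-fold (215 ± 1.86 CPM in control and 118.2 ± 2.33 CPM in SPNS2 cells, edgeR adjusted p = 0.0028), CXCL8, a chemokine, fell 3.87-fold (edgeR adjusted p = 0.0034) and the cell cycle inhibitor gene CDKN1A fell 1.32-fold (edgeR adjusted p = 0.0209), while JUN, part of AP-1, rose 1.69-fold (359 ± 20.0 CPM in control and 606 ± 38.5 CPM in SPNS2 cells, edgeR adjusted p = 0.0062). DACH1 measured 0.015 ± 0.021 CPM in control and 0.983 ± 1.07 CPM in SPNS2 cells beside these. Of this list 3 genes were called without NC replicate 1, without NC replicate 2 or without SPNS2 replicate 1.

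Factors that act with SIX2 and EYA1 in nephron progenitors and their stroma went both ways. Of 14, 7 were tested, 2 rose, 2 fell and 3 did not pass, with a median of -1.24. That median is the value of HOXC11, which had 2 to 24 counts per library (SE 0.98, edgeR adjusted p = 0.423). The homeobox gene MEOX2 fell 51.5-fold (45.1 ± 0.708 CPM in control and 0.871 ± 0.0827 CPM in SPNS2 cells, edgeR adjusted p = 0.00065) and OSR1, a factor of the intermediate mesoderm, fell 6.98-fold (40.1 ± 0.84 CPM in control and 5.75 ± 0.46 CPM in SPNS2 cells, edgeR adjusted p = 0.0013). FOXD1, a factor of the kidney stroma, rose 4.91-fold (30.6 ± 3.15 CPM in control and 150 ± 6.05 CPM in SPNS2 cells, edgeR adjusted p = 0.0014). The other gene that rose was GDNF, given above. WT1, PAX2, LHX1 and HOXD11 had no counts in any library. Among 10 myogenic factors, 6 were tested, 1 rose (TCF3, 1.44-fold, edgeR adjusted p = 0.0108), 1 fell (MEF2A, 1.9-fold, edgeR adjusted p = 0.0469) and 4 did not pass, among them TCF12 (edgeR adjusted p = 0.203) and TCF4 (edgeR adjusted p = 0.218). MYOD1, MYF5 and MYOG had no counts and MYF6 at most 2. No myogenic factor was called without NC replicate 1 or without NC replicate 2.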

How the data were processed

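RNA of 4 U118-MG libraries (2 NC, 2 SPNS2) was sequenced. The authors deposited raw counts per Ensembl gene, not normalized, and per the submitters' processing notes used Trim Galore 0.6.9, HISAT2 2.2.1, featureCounts 0.3 and hg38. Which annotation release and strand setting they used is not given in the sources used here. A row without counts was left out. Positions and exon lengths came from GENCODE 29 on GRCh38, the assembly of hg38 (17382 of 17853 tested genes matched).

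After filterByExpr (minimum count 10, minimum total 15) and TMM scaling, the groups were compared with edgeR 4.0.16 in R 4.3.3 by its quasi-likelihood test (two-sided, group as sole covariate). P-values were adjusted by Benjamini-Hochberg across the tested genes, with calls under 0.05. The SE is the log2 fold change over the square root of F, and 95% intervals use that test's degrees of freedom. Log2 CPM had a prior count of 2.

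The members and lists were chosen with earlier results of these data known. Named were all members, 3 further family genes, the 4 tested genes of smallest p in each list plus DMPK, CCND1 and MYOG, the nearest tested genes beside members above a mean of 1 CPM, and the 3 genes most like EYA2. Some genes of the lists are not reported here and are in no list count. Other genes with values (H2AX, TARID, TCF21, MYF6, HOXC11, MYC) were added after the values were seen. The markers came from fixed lists by cell type, and some of them were named singly after the values were seen. Alternatives were RLE factors, DESeq2 1.42.0, voom of limma 3.58.1, dropping the filter or raising it to a mean of 1 CPM, the replicate number as a block, leaving out each library, and subtracting the chromosome median.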

Additional observations from a re-analysis of the deposited data

How the results depend on the processing

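Of 165 comparisons of a result with an alternative, 133 stayed within the replicate spread (for a member) or within 1.5 times (for a count). The other 32 moved, and no log2 fold change of a member changed direction. The 133 include every setting for the other family genes, of which none was called in any fit. The fitted log2 fold changes of the genes at 0 in a group moved with the tool: EYA2, -11.3 in the edgeR fit, was -9.26 with limma-voom and -10.7 with DESeq2, and EYA4, 8.24, was 6.22 and 7.7. EYA3, at 0.09, was 0.0100 with the chromosome median subtracted and 0.074 to 0.12 with a library left out, and SIX2 was -8.83 to -3.12. Over all genes, 4171 were called, 1976 with the replicate block and 1712 to 2144 with a library left out. The cause of these shifts was not tested, except that a left-out library leaves fewer samples. With the replicate block, the PAX, EYA partner and myogenic lists had 1 called gene each; without a low-count filter they had 1, 3 and 1. With a library left out, the called genes were 1 for PAX, 2 to 4 for the cofactors, 1 to 2 for the EYA partners, 3 to 4 for the DACH1-repressed genes and 0 to 3 for the myogenic factors. The labels pair the libraries by replicate number only. Deviations of same-numbered libraries correlated at -0.08 across 17853 genes, which cannot decide whether they shared a culture or preparation. With the block 2 members were called instead of 4, and DESeq2 called 6 of 8. DACH1 had a log2 fold change of 5.7 (SE 1.53) without a low-count filter and 6.03 with DESeq2. Depth limits EYA4, SIX2 and DACH1 most, each with at most 66 counts in any library.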
